A study of Mus musculus with 12 samples.

Results

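The 43 genes described here encode lysosomal membrane proteins, lysosomal proteases, glycosidases and lipid-handling proteins, 2 transcription factors of lysosome biogenesis, autophagy receptors, the ATG8 family and the core autophagy machinery. They were taken by symbol from a table of 38887 mouse genes, and all 43 were found. RNA had been sequenced from 12 pools of 30 retinal ganglion cells, 3 pools in each of 4 groups. The line called Opn4 has the genotype Opn4CreERT/+;R26-tdTomatof/f, in which tamoxifen lets a Cre expressed from Opn4 turn on a red reporter in melanopsin ganglion cells. The line called HB9 is HB9:GFP, a transgene with which direction-selective cells of the ON-OFF kind can be picked by their green colour. Each line was sampled after optic nerve crush, which severs the axons of these cells, and after sham surgery. Mice of both lines received tamoxifen at 0.124 mg per g on 5 days from postnatal day 21, had surgery at postnatal day 42 and were sampled 3 days later. Cre and the red reporter belong to the Opn4 line alone, so that they cannot be told apart from the cell class. Single fluorescent cells were taken up with a pipette, only where no other cell came along, and a pool joined 3 lots of 10 cells, with 10 taken per animal. The labels do not say whether pools of a group shared animals, so that p-values measure the spread between these pools. Values are RPKM, reads scaled by gene length and by a library total, and 41 of the 43 genes reached 1 RPKM in 3 or more of the 12 libraries and were tested.

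Lysosomes are acidic organelles in which hydrolases break down proteins, lipids, glycans and worn organelles. Macroautophagy brings cytoplasmic cargo to them: the ULK1 and Beclin 1 complexes start a membrane, WIPI proteins and ATG9A help it grow, the ATG5 and ATG7 conjugation systems attach ATG8 proteins such as LC3 to it, and receptors such as p62 (Sqstm1) tether cargo to those ATG8 proteins. TFEB and TFE3 are transcription factors that enter the nucleus under starvation or lysosomal stress and activate many lysosomal and autophagy genes through a palindromic element. In neurons autophagosomes form in axons and are carried to the cell body, where most mature lysosomes lie.

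Promoter stretches are shown because that element is known from many lysosomal genes. RefSeq windows of the GRCm38.p6 build, from 250 bases before to 50 after each transcription start, were found for 38 of the 43 genes. The core of the element, CACGTG, was searched on both strands and occurred in 11 of these 38 genes (28.9%) against 2187 of 27025 genes with a window (8.09%), or 7.15% of all windows. The genes with a match were Lamp1, Mcoln1, Ctsa, Ctsd, Ctsf, Ctsl, Lgmn, Glb1, Gaa, Atg5 and Atg7. The longer TCACGTGA, which contains the core, occurred in Mcoln1, Ctsa and Ctsd (7.89% of the 38, and 1.12% of all genes with a window). A palindrome that extends it by a further base on each side was also searched. That form occurred in 0 of the 38 genes and in 0.370% of all genes with a window. The AP-1 site TGACTCA or its other strand TGAGTCA, which binds JUN and FOS proteins, occurred in Gpnmb, Cd68, Glb1 and Psap, 10.5% of the 38 against 5.95% of all genes with a window. A match is a run of letters and was not tested for binding. The first 4 stretches below show CACGTG in capitals in Lamp1, which had 4 matches, and in Mcoln1, Ctsa and Ctsd. The listed span of Ctsa begins at 164832873, so its stretch belongs to a start inside the gene. Its matches begin at bases −12 and 6 from that start, and the Gpnmb match at base 9 from its own. The last 2 show the AP-1 site in capitals in Gpnmb and Cd68, picked because they had the largest differences after crush in HB9 cells. Glb1 and Psap, which also hold the site, were not called after crush in either line.
Lamp1, chr8:13159091-13159160, plus strand: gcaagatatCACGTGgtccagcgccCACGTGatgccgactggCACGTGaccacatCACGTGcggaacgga
Mcoln1, chr8:3500439-3500498, plus strand: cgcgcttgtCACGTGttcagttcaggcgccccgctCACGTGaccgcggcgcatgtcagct
Ctsa, chr2:164833755-164833784, plus strand: aactgtCACGTGatgcagatgctCACGTGa
Ctsd, chr7:142387908-142387937, minus strand: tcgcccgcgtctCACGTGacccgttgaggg
Gpnmb, chr6:49036515-49036544, plus strand: ccaggggcaagTGACTCAtgagcacgagtt
Cd68, chr11:69666171-69666330, minus strand: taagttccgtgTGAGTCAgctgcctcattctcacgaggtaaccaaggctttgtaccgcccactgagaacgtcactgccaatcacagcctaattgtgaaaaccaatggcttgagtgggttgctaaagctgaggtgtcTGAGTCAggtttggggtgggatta

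The genes Opn4 and Cartpt separated the lines as labelled. Opn4, the melanopsin gene, ranged from 1255 to 1773 RPKM in Opn4 cells and from 0.158 to 24.3 in HB9 cells, and Cartpt, a peptide gene of direction-selective cells, from 81.9 to 177 and from 1364 to 6395. Mnx1, which encodes HB9, ranged from 20.9 to 41.7 RPKM in HB9 sham and from 1.13 to 3.06 in HB9 crush. The summed level of 5 markers of melanopsin cells was 38.4 to 60.5 RPKM in HB9 sham and 274 to 349 in HB9 crush, most of it Adcyap1 (38.2 to 49.9 and 263 to 323), against 2161 to 3163 in Opn4 cells. The authors had scaled the libraries to totals of 15104446 to 28195798 reads. On the log2 scale, the median standard deviation of the set was 0.29 in Opn4 sham, 0.30 in Opn4 crush, 0.21 in HB9 sham and 0.22 in HB9 crush. For all tested genes it was 0.47, 0.51, 0.33 and 0.34 in the same order. Replicates thus spread more in Opn4 cells, while the fit over all 12 libraries used 1 spread per gene for the 4 groups. Opn4 sham replicate 1 stood apart on the third principal component (83.8, the other libraries between −61.9 and 34.3). This library's Psap level was 125 RPKM against 840.0 and 1002 in the other Opn4 sham libraries, its Gabarapl1 level 241 against 708 and 867, and its Scarb2 level 0.786 against 36.5 and 44.8. Opn4 crush replicate 1 lay at the opposite end of that component. It held the glial transcripts Apoe at 73.0 RPKM and Slc1a3 at 14.7, where Apoe was at most 6.18 and Slc1a3 at most 0.844 in the other 11 libraries.

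The set was abundant. Its 41 tested genes had a median RPKM of 49.9 in Opn4 sham, 69.8 in Opn4 crush, 57.3 in HB9 sham and 99.3 in HB9 crush, where all tested genes had medians of 10.3 to 11.8. Of the 41, those in the top 10% of tested genes by mean RPKM numbered 13 in Opn4 sham and 15 in Opn4 crush. They numbered 19 in HB9 sham and 20 in HB9 crush. The highest levels belonged to Psap, which encodes the precursor of the saposins that present sphingolipids to their hydrolases, to the autophagy receptor Sqstm1, to Gabarapl1 of the ATG8 family, and to the proteases Ctsb and Ctsd. Ctss was 0 in all 12 libraries and Ctsh at most 0.116 RPKM, so that both were left untested. Both are cathepsins prominent in myeloid cells. Tfeb and Wipi1 were near the limit of the test, at 0 to 1.53 and 0 to 1.58 RPKM.

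**Figure D1:**
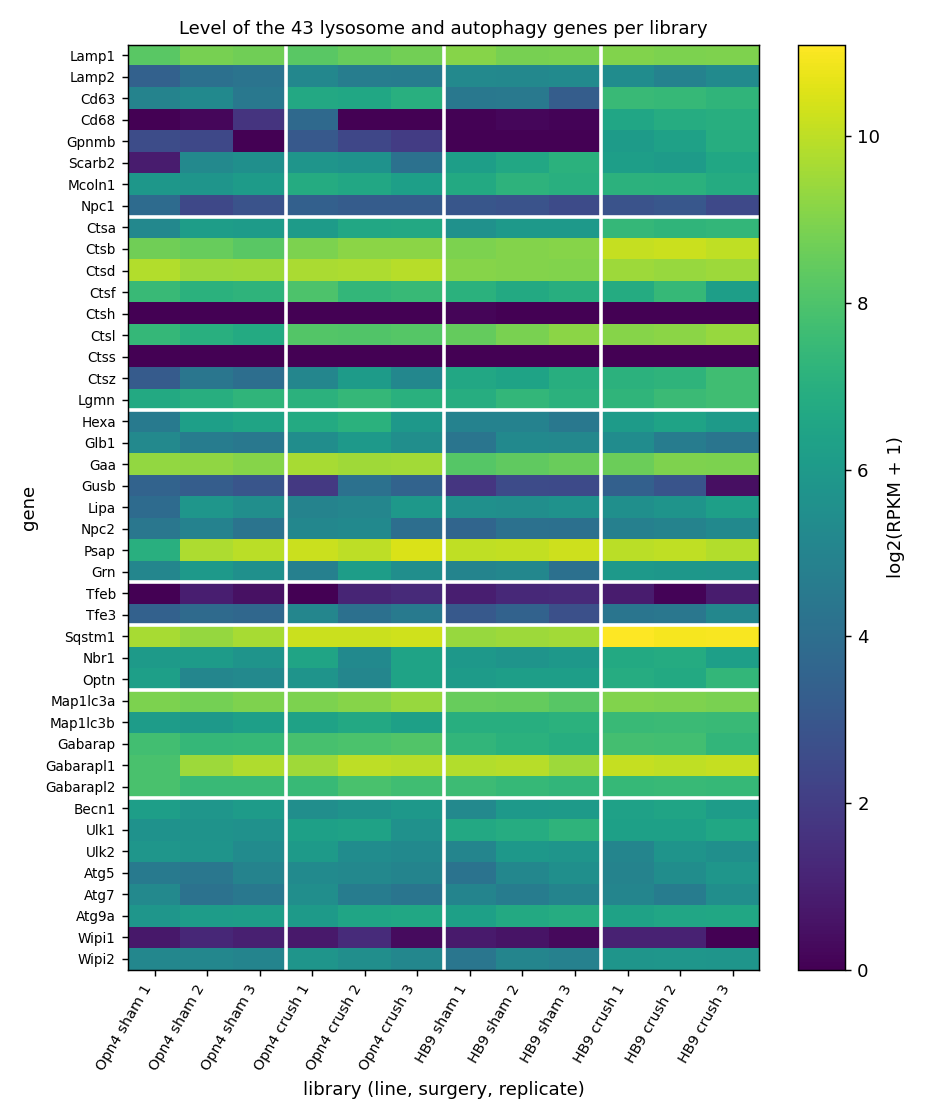
Each cell gives log2(RPKM + 1) of 1 of the 43 genes (vertical axis, white lines between roles) in 1 of the 12 libraries (horizontal axis, white lines between groups). Most genes kept a similar level across the 12 libraries, whereas Cd68 and Gpnmb were bright in the 3 HB9 crush libraries, and Ctsh and Ctss were dark throughout.

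The summed RPKM of the 43 genes took 0.565% to 0.695% of the library's total RPKM in Opn4 sham and 0.910% to 1.02% in Opn4 crush. It took 0.644% to 0.761% in HB9 sham and 1.05% to 1.12% in HB9 crush, so that crush libraries lay above sham libraries in both lines. In HB9 cells Sqstm1 gave 38.4% of the net difference in summed RPKM and Ctsb 17.1%. In Opn4 cells Psap gave 22.4%, Sqstm1 18.3% and Gabarapl1 12.2%, and the shares of Psap and Gabarapl1 rest in part on their low levels in Opn4 sham replicate 1.

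Gene by gene, log2(RPKM + 1) was compared with limma across all 12 libraries, and a change was called at an adjusted p under 0.05. In Opn4 cells 4 of the 41 tested genes rose after crush (Cd63, Ctsl, Ctsz and Sqstm1) and 0 fell. Of all 18269 tested genes, 0.690% rose and 0.421% fell in this comparison, 1.11% in all. In HB9 cells 9 of the 41 rose (Cd63, Cd68, Gpnmb, Ctsa, Ctsb, Tfe3, Sqstm1, Map1lc3a and Wipi2) and 0 fell, against 3.84% of all tested genes that rose and 2.57% that fell, 6.42% in all. Without adjustment, 13 of the 41 genes had a limma p under 0.05 in Opn4 cells and 20 in HB9 cells. Here and below, counts at an unadjusted p have no share of all tested genes beside them. They are not read as a result about the set. The median log2 difference of the set was 0.35 in Opn4 cells, beside −0.02 for all tested genes, and 0.40 in HB9 cells, beside 0.11. That 0.11 was 0.03 after median-of-ratios scaling and −0.01 after quantile normalization, so the shift of the HB9 median over all tested genes depended on the scaling. The size of this shift in single genes was not tested. In Opn4 cells 15 of the 41 genes had all 3 crush libraries above all 3 sham libraries (7.38% of all tested genes did) and 0 had them all below (7.33%). In HB9 cells 20 had them all above (19.0%) and 2 all below (12.6%). The set was chosen with earlier results of these data known, so its distance from all tested genes is no independent support. Its genes also had higher levels and a smaller spread than all tested genes, and the part of this in the counts was not tested. A larger RNA level in a pool of cells and a larger share of cells that express the gene cannot be told apart in these data.

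Among the membrane proteins the tetraspanin Cd63 rose in both lines, and Cd68 and Gpnmb rose in HB9 cells. Cd68 (chr11:69664213-69666153, mm10), a heavily glycosylated protein of endosomes and lysosomes best known from macrophages, was at 0.0354, 0.129 and 0.0801 RPKM in the HB9 sham libraries and at 92.9, 116 and 125 in the HB9 crush libraries. Its 3 crush libraries lay far above its sham libraries. The log2 difference was 6.69 ± 0.85 (SE; adjusted p = 0.000436), and in reads recovered from the RPKM steps it was 11010 against 7, a ratio of 1352 with a 95% interval of 656 to 3363 that covers counting error only. In Opn4 cells Cd68 was at 0, 0.158 and 2.15 RPKM after sham and at 13.0, 0 and 0 after crush. The groups overlapped, and the difference was not called (0.65 ± 0.85, adjusted p = 0.771). All 284 recovered crush reads came from replicate 1. That library held the glial transcripts named above, while its microglia and macrophage markers summed to 0.922 RPKM, the lowest of the 12 libraries. The part of other cells in its Cd68 reads was not tested.

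Gpnmb (chr6:49036518-49058182, mm10), a transmembrane glycoprotein of lysosomes, melanosomes and phagocytes, was at 0, 0 and 0.0132 RPKM in HB9 sham and at 66.8, 80.1 and 120.0 in HB9 crush. The HB9 groups were fully apart, and the log2 difference was 6.44 ± 0.62 (adjusted p = 5.27e-05). The recovered reads numbered 26540 after crush and 1 after sham, a ratio of 22807 whose 95% counting interval runs from 4093 to 900874. Opn4 cells already held Gpnmb at 4.92, 4.27 and 0 RPKM after sham and at 7.69, 4.17 and 2.87 after crush. These groups overlapped and the difference of 0.83 ± 0.62 was not called (adjusted p = 0.589).

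Cd63 (chr10:128908919-128912816, mm10), a tetraspanin of late endosomes, lysosomes and exosomes, was at 30.3, 37.8 and 20.7 RPKM in Opn4 sham and at 102, 96.2 and 126 in Opn4 crush. It was at 20.8, 21.4 and 8.78 RPKM in HB9 sham and at 181, 174 and 153 in HB9 crush. Crush and sham libraries did not overlap in either line. The log2 difference was 1.87 ± 0.32 in Opn4 cells (adjusted p = 0.0125) and 3.34 ± 0.32 in HB9 cells (adjusted p = 4.89e-05). The Opn4 call was lost without Opn4 sham replicate 1 and Opn4 crush replicate 1 together (adjusted p = 0.0558) and in a fit of the Opn4 libraries alone (0.107).

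The other 5 membrane proteins were not called in either line. Lamp1, the main structural glycoprotein of the lysosomal membrane, had a mean of 392 ± 76.1 RPKM (SD, n = 3) in Opn4 sham and 369 ± 60.4 in Opn4 crush, and 487 ± 50.4 and 496 ± 16.2 in HB9 cells. Its log2 difference was −0.08 in Opn4 cells (95% interval −0.45 to 0.28) and 0.03 in HB9 cells (−0.33 to 0.39). Lamp2, its relative needed for fusion with autophagosomes, was at 9.80, 16.0 and 18.5 RPKM in Opn4 sham and at 33.8, 25.1 and 24.1 in Opn4 crush. These groups did not overlap, but the difference of 0.89 ± 0.28 missed the threshold (adjusted p = 0.161), and in HB9 cells it was −0.01. Mcoln1, the calcium channel TRPML1 of lysosomes, had a difference of 0.67 ± 0.20 in Opn4 cells (adjusted p = 0.134) and 0.04 in HB9 cells. Scarb2, the receptor that carries glucocerebrosidase to lysosomes, spread widely in Opn4 cells (0.786 to 53.8 RPKM). Npc1, which exports cholesterol from lysosomes, stayed between 4.23 and 13.7 RPKM in all 12 libraries.

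**Figure D2:**
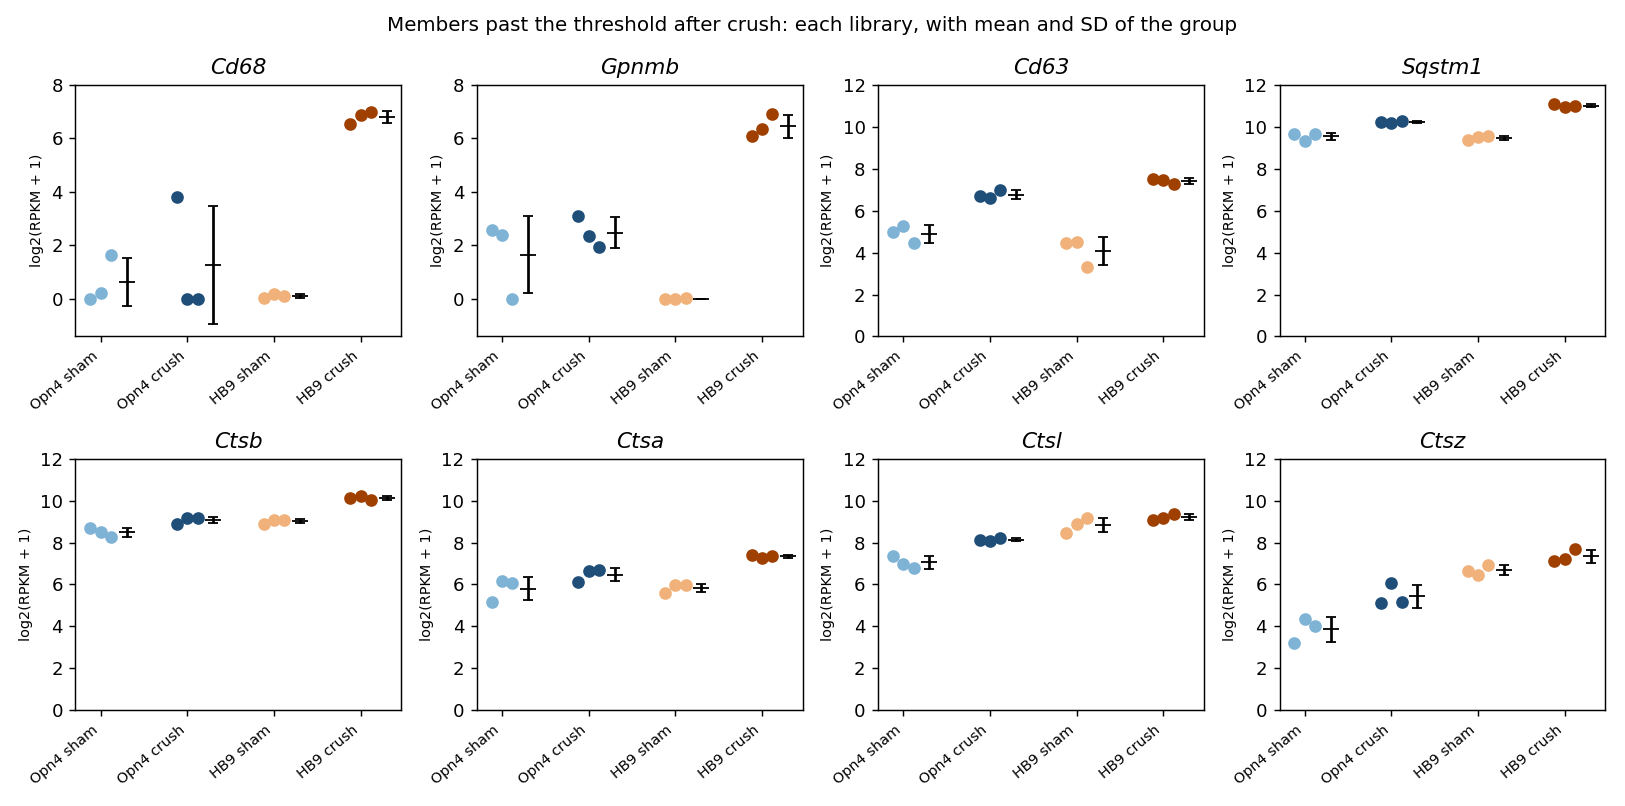
Each panel shows log2(RPKM + 1) (vertical axis) of 1 gene in the 4 groups (horizontal axis), with 1 point per library and the group's mean and standard deviation in black beside it. Cd68 and Gpnmb of HB9 crush lie at 92.9 to 125 and 66.8 to 120.0 RPKM, above every other library, while Cd63, Sqstm1, Ctsb, Ctsa, Ctsl and Ctsz differ by less.

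Because Cd68 and Gpnmb are also genes of phagocytes, markers of other cells were read beside them. Of 15 microglia and macrophage markers, Tmem119, C1qb, C1qc and Fcrls were 0 in all 12 libraries, and 13 stayed under 1 RPKM in all 12. Cx3cr1 reached at most 0.159 RPKM, Tyrobp 0.237, P2ry12 0.0232 and Trem2 0.0134. Their summed level was 3.46 to 4.27 RPKM in HB9 sham and 5.43 to 5.69 in HB9 crush, most of it Csf1r (3.02 to 3.93 and 4.94 to 5.26). In Opn4 cells the sum was 3.44 to 6.02 after sham and 0.922 to 14.8 after crush. Of 10 pigment epithelium and melanocyte markers, Rpe65 was 0 in all 12 libraries, Tyrp1 and Mlana were 0 in HB9 crush, and the sum was 5.00 to 10.0 RPKM in HB9 sham and 10.9 to 16.3 in HB9 crush. The 12 Muller glia and astrocyte markers summed to 427 to 474 RPKM in HB9 sham and 846 to 2235 in HB9 crush. Most of the crush sum was Clu, at 195 to 248 and 705 to 1987. Dkk3 of the same list went the other way, at 153 to 204 RPKM in HB9 sham and 38.4 to 135 in HB9 crush. Rlbp1, a retinoid-binding protein of Muller glia, was at 2.30 to 3.72 RPKM in HB9 sham and at 14.7 to 31.5 in HB9 crush, whereas Aqp4 was 0 and Slc1a3 at most 0.00885 RPKM in the 6 HB9 libraries. The 7 amacrine cell markers summed to 67.0 to 91.1 RPKM in HB9 sham and 67.8 to 169.7 in HB9 crush. Among them the glycine transporter Slc6a9 was at 0.215 to 5.57 and at 35.7 to 42.8 RPKM, and Tfap2b at 0.0236 to 0.286 and at 1.66 to 10.5. Pax6 went the other way, at 59.4 to 67.6 RPKM in HB9 sham and 17.5 to 43.3 in HB9 crush. The HB9 groups of Gad1, Gad2 and Tfap2a overlapped, and Chat was 0 in the 6 HB9 libraries. The 8 vascular markers summed to 0.048 to 0.139 RPKM and to 1.56 to 2.99. The part of the glial, amacrine, pigment and vascular markers in the differences was not tested.

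**Figure D3:**
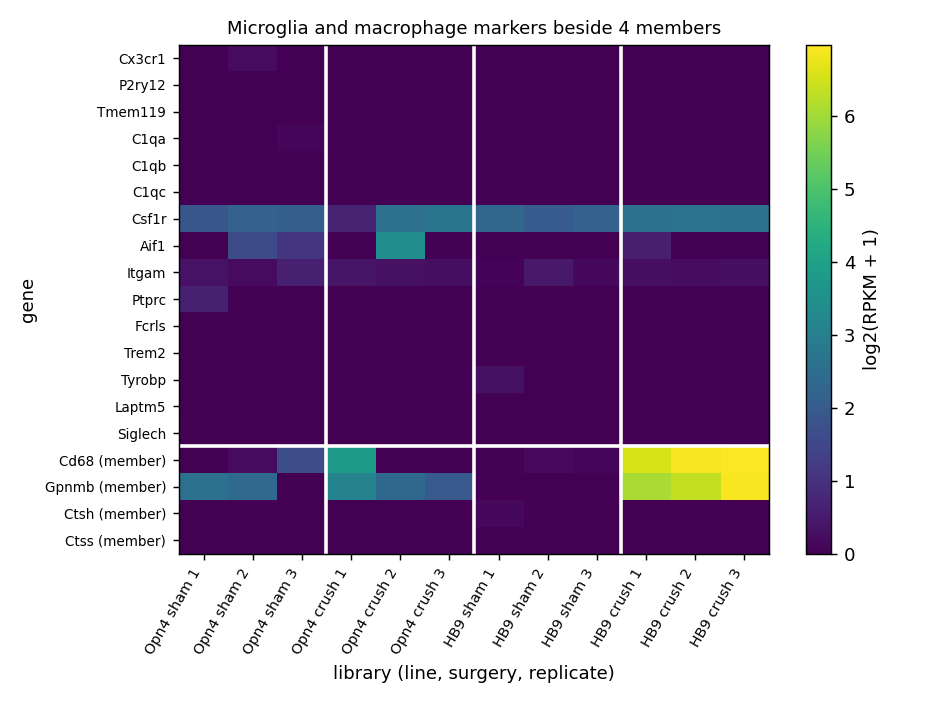
Log2(RPKM + 1) is shown in colour for 15 microglia and macrophage markers and 4 genes of the set (vertical axis) in the 12 libraries (horizontal axis). Only Cd68 and Gpnmb are bright in the 3 HB9 crush libraries; Csf1r is present throughout, and Aif1 reaches 9.65 RPKM in Opn4 crush replicate 2.

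Among the 7 tested proteases 2 rose in Opn4 cells (Ctsl and Ctsz) and 2 in HB9 cells (Ctsa and Ctsb). Ctsb (chr14:63122462-63145919, mm10), the cysteine protease cathepsin B, was at 474, 532 and 536 RPKM in HB9 sham and at 1127, 1179 and 1039 in HB9 crush. Its groups were well separated, with a log2 difference of 1.12 ± 0.14 (adjusted p = 0.000361). In Opn4 cells it was at 408, 366 and 305 RPKM after sham and at 474, 572 and 577 after crush. Here too the groups did not overlap, but the difference of 0.59 ± 0.14 missed the threshold (adjusted p = 0.0624). It passed in 4 of 24 alternatives, among them those without Opn4 sham replicate 1 (0.0459) and without Opn4 crush replicate 1 (0.0482). The span of Ctsb overlaps Fdft1 on the opposite strand, which reached 253 RPKM, and whether the counting used strand is not given.

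Ctsa (chr2:164832873-164841032, mm10), a carboxypeptidase that also protects beta-galactosidase and neuraminidase, was at 47.5, 60.9 and 61.4 RPKM in HB9 sham and at 168, 151 and 163 in HB9 crush. All 3 crush libraries were far above the highest sham library, and the log2 difference was 1.50 ± 0.26 (adjusted p = 0.00394). In Opn4 cells Ctsa was at 34.9, 70.4 and 66.9 RPKM after sham and at 67.8, 98.5 and 102 after crush, groups that overlapped (0.67 ± 0.26, adjusted p = 0.265). The span of Ctsa overlaps Neurl2 and Pltp on the opposite strand, which reached 20.6 and 3.71 RPKM.

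Ctsl (chr13:64363214-64370306, mm10), cathepsin L, was at 165, 126 and 109 RPKM in Opn4 sham and at 281, 269.7 and 292 in Opn4 crush. Its 3 crush libraries lay close together above the sham libraries, and the log2 difference was 1.09 ± 0.19 (adjusted p = 0.0156). HB9 cells already held it at 353, 473 and 567 RPKM after sham, against 544, 567 and 662 after crush, and the difference of 0.37 ± 0.19 was not called (adjusted p = 0.333). Ctsz (chr2:174427493-174439039, mm10), the carboxypeptidase cathepsin Z, was at 8.21, 19.4 and 15.0 RPKM in Opn4 sham and at 33.6, 66.5 and 34.5 in Opn4 crush. These groups did not overlap either, and Ctsz rose by 1.59 ± 0.33 (adjusted p = 0.0386). In HB9 cells it was at 100.1, 86.8 and 123 RPKM after sham and at 139.6, 146 and 207 after crush (0.66 ± 0.33, adjusted p = 0.318). The Opn4 call of Ctsl was lost without Opn4 sham replicate 3 (adjusted p = 0.0556) and in limma voom on recovered reads (0.0749). That of Ctsz was lost without Opn4 sham replicate 1 (0.097) or 3 (0.0766), Opn4 crush replicate 2 (0.0809), HB9 sham replicate 1 (0.0655), 2 (0.0638) or 3 (0.0558), or HB9 crush replicate 1 (0.067) or 2 (0.0605). Without Opn4 sham replicate 1 and Opn4 crush replicate 1 together, Ctsl and Sqstm1 kept their Opn4 calls and Ctsz lost its own (0.0705).

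The other tested proteases were not called. Ctsd, the aspartic protease cathepsin D, had means of 783 ± 113 RPKM in Opn4 sham and 874 ± 67.2 in Opn4 crush, and 529 ± 18.2 and 700.1 ± 26.4 in HB9 cells. In HB9 cells its groups did not overlap and the difference of 0.40 ± 0.12 had an adjusted p of 0.0759, which was 0.0319 without Opn4 sham replicate 1. Lgmn, the asparaginyl endopeptidase legumain that activates cathepsins, had differences of 0.20 in Opn4 cells and 0.39 in HB9 cells, and Ctsf, cathepsin F, of 0.32 and −0.11.

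Among the 8 glycosidases and lipid-handling proteins 0 were called in either line. Without adjustment, 3 in Opn4 cells and 4 in HB9 cells had a limma p under 0.05, counts that are not read as a result. Hexa, the alpha subunit of beta-hexosaminidase that degrades GM2 ganglioside, was at 29.3, 29.2 and 20.6 RPKM in HB9 sham and at 68.1, 86.3 and 65.4 in HB9 crush. The groups did not overlap, with a difference of 1.45 ± 0.44 (adjusted p = 0.0719), and the adjusted p was 0.00848 without Opn4 sham replicate 1, in which Hexa was 22.9 RPKM beside 74.9 and 89.0. Npc2, the soluble partner of NPC1 in cholesterol export, was at 11.2, 16.7 and 16.1 RPKM in HB9 sham and at 27.2, 30.1 and 37.8 in HB9 crush (1.07 ± 0.35, adjusted p = 0.1; 0.0397 without Opn4 crush replicate 3). Grn, which encodes progranulin, was at 31.2, 34.8 and 16.3 RPKM in HB9 sham and at 62.9, 57.3 and 56.7 in HB9 crush (1.14 ± 0.36, adjusted p = 0.0864). For these 3 genes every HB9 crush library exceeded every HB9 sham library, as it did for 19.0% of all tested genes, without the call being reached.

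Gaa, the acid alpha-glucosidase that degrades glycogen, had group means of 597 ± 51.3 RPKM in Opn4 sham, 762 ± 31.9 in Opn4 crush, 335 ± 47.4 in HB9 sham and 453 ± 58.8 in HB9 crush. It was higher in every crush library than in every sham library of its line, with differences of 0.35 ± 0.14 (adjusted p = 0.284) and 0.44 ± 0.14 (adjusted p = 0.1). Psap was at 125, 840.0 and 1002 RPKM in Opn4 sham, at 1199, 1006 and 1433 in Opn4 crush, and between 909 and 1227 in the 6 HB9 libraries. Its Opn4 difference of 1.34 ± 0.55 was not called (adjusted p = 0.292), and the first sham library lay far below the other two. Glb1, beta-galactosidase, had a difference of 0.85 ± 0.35 in Opn4 cells and −0.12 in HB9 cells. Gusb, beta-glucuronidase, stayed at 16.6 RPKM or less in all 12 libraries, and Lipa, the acid lipase, had differences of 0.25 and 0.26.

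Of the 2 transcription factors Tfe3 (chrX:7762560-7775202, mm10) rose in HB9 cells. It was at 7.45, 10.2 and 5.52 RPKM in HB9 sham and at 18.9, 20.1 and 33.7 in HB9 crush, without overlap (1.52 ± 0.36, adjusted p = 0.0244). In Opn4 cells it was at 9.80, 13.2 and 12.2 RPKM after sham and at 33.5, 16.2 and 22.2 after crush, again without overlap, but the difference of 0.92 ± 0.36 was not called (adjusted p = 0.264). Tfeb was near the detection limit, with means of 0.443 RPKM in Opn4 sham, 0.908 in Opn4 crush, 1.29 in HB9 sham and 0.564 in HB9 crush. Its 3 HB9 crush libraries lay below its 3 HB9 sham libraries, at a difference of −0.58 ± 0.45 (adjusted p = 0.577). The HB9 call of Tfe3 was lost without HB9 sham replicate 1 (0.0721) or 3 (0.0979) and without HB9 crush replicate 1 (0.0509), 2 (0.0541) or 3 (0.122).

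Among the autophagy receptors Sqstm1 rose in both lines. Sqstm1 (chr11:50199366-50210827, mm10) encodes p62, which binds ubiquitinated cargo and LC3, is itself degraded by autophagy, and is also transcribed in stress responses. It was at 805, 644 and 796 RPKM in Opn4 sham and at 1189, 1175 and 1248 in Opn4 crush. HB9 cells held 669, 719.6 and 754 RPKM after sham and 2196, 1984 and 2015 after crush. The sham levels of the lines were alike, the crush libraries lay above them in both lines, and the HB9 crush libraries lay above the Opn4 crush libraries. The log2 difference was 0.69 ± 0.12 in Opn4 cells (adjusted p = 0.0125) and 1.53 ± 0.12 in HB9 cells (adjusted p = 9.89e-06). In a fit of the Opn4 libraries alone, which called 0 genes of the set, the adjusted p in Opn4 cells was 0.212. Nbr1, a second ubiquitin-binding receptor, was at 60.2, 52.5 and 59.1 RPKM in HB9 sham and at 108, 114 and 76.4 in HB9 crush (0.76 ± 0.30, adjusted p = 0.172). Optn, optineurin, a receptor for damaged mitochondria, was at 67.9, 73.3 and 74.7 RPKM and at 116, 105 and 163 in the same groups (0.80 ± 0.36, adjusted p = 0.248). Both had all HB9 crush libraries above the HB9 sham libraries, as did 19.0% of all tested genes, and overlapping Opn4 groups.

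The ATG8 family moved by small amounts. Map1lc3a (chr2:155276297-155278073, mm10), which encodes LC3A, was at 364, 357 and 298 RPKM in HB9 sham and at 505, 499 and 465 in HB9 crush, and rose by 0.53 ± 0.14 (adjusted p = 0.0443). That call held in 11 of 24 alternatives. It was lost without any 1 of the 6 HB9 libraries (0.0744 to 0.175), without Opn4 sham replicate 3 (0.0562) or Opn4 crush replicate 2 (0.0521), and with median-of-ratios scaling (0.0786). Map1lc3b, LC3B, was at 124, 125 and 135 RPKM in HB9 sham and at 182, 189.5 and 182 in HB9 crush. Its replicates were close and the groups separate, yet the difference of 0.53 ± 0.16 missed the threshold (adjusted p = 0.0717). Its span lies wholly within the listed gene Gm20388 on the same strand, so that their reads cannot be told apart. Gabarap had differences of 0.44 ± 0.17 in Opn4 cells (adjusted p = 0.277) and 0.50 ± 0.17 in HB9 cells (adjusted p = 0.12). Gabarapl1, a highly expressed relative, had 0.76 ± 0.35 and 0.37 ± 0.35. Gabarapl2 had 0.06 (95% interval −0.31 to 0.42) and 0.00 (−0.36 to 0.36).

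Of the 8 genes of the autophagy machinery 1 was called. Wipi2 (chr5:142629542-142670588, mm10), a phosphoinositide-binding protein that recruits the LC3 conjugation complex, was at 19.8, 31.7 and 28.8 RPKM in HB9 sham and at 54.3, 55.3 and 54.8 in HB9 crush. The crush libraries were almost equal and above the sham libraries (1.03 ± 0.24, adjusted p = 0.02). In Opn4 cells the difference was 0.39 ± 0.24 (adjusted p = 0.489). The HB9 call was lost without HB9 sham replicate 1 (0.0867) or HB9 crush replicate 1 (0.07), 2 (0.0656) or 3 (0.0687). Ulk1, the kinase that starts autophagy, was at 103, 116 and 148 RPKM in HB9 sham and at 78.2, 77.4 and 97.0 in HB9 crush, all crush libraries below all sham libraries (−0.53 ± 0.23, adjusted p = 0.221). Becn1, Beclin 1, had differences of −0.34 ± 0.24 in Opn4 cells and 0.58 ± 0.24 in HB9 cells (adjusted p = 0.566 and 0.202). The span of Becn1 overlaps Cntd1 on the other strand. Atg5, Atg7, Atg9a and Ulk2 had differences between −0.15 and 0.53 in both lines, and none was called. Wipi1, a relative of Wipi2, was at most 1.58 RPKM in all 12 libraries.

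**Figure D4:**
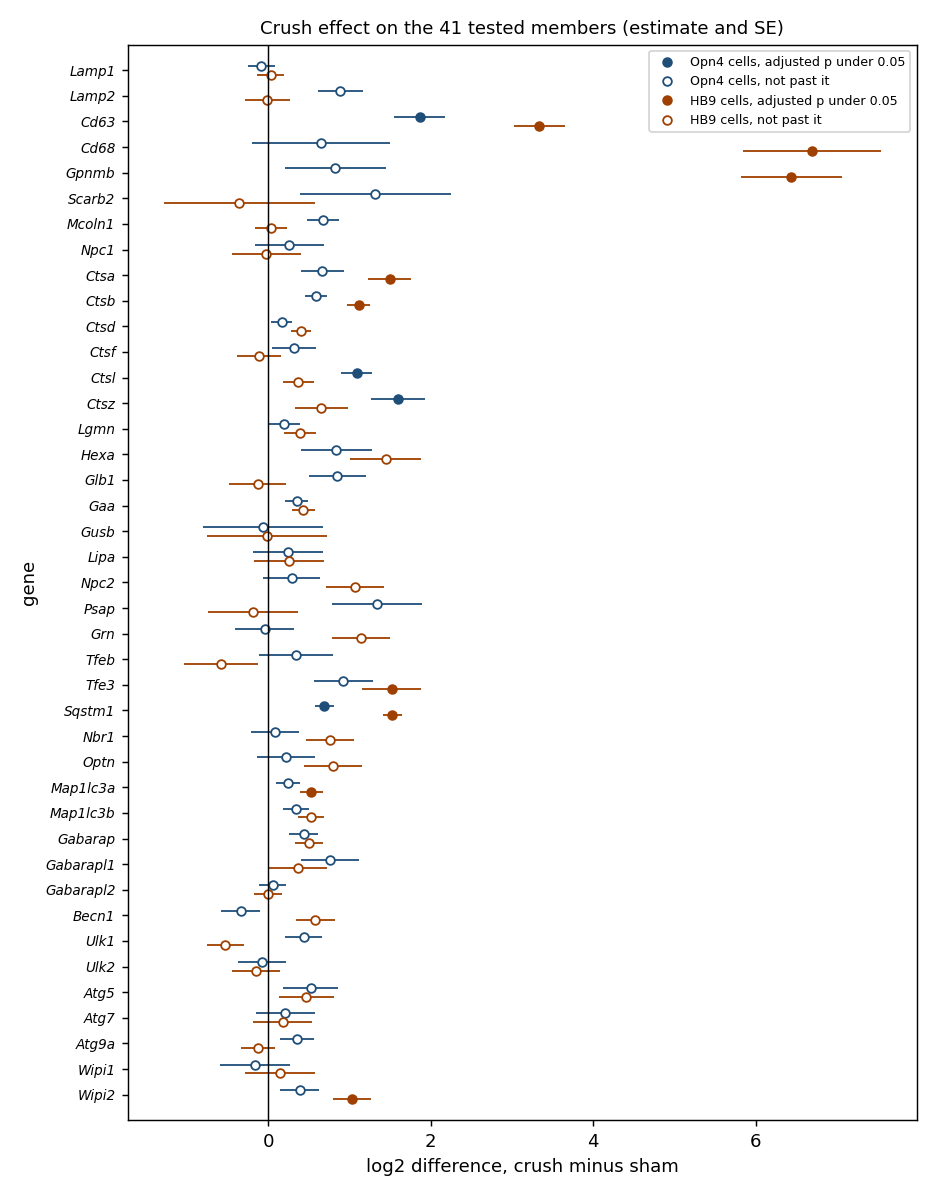
The horizontal axis gives the log2 difference between crush and sham, and the vertical axis the 41 tested genes; points are limma estimates with standard errors, filled where the adjusted p was under 0.05. Cd68 (6.69) and Gpnmb (6.44) of HB9 cells stand apart on the right, Cd63 follows at 3.34, and most other genes lie between −0.6 and 1.6 in both lines.

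The mean of both crush effects, which uses all 12 libraries, was called for 15 of the 41 genes, all higher, where 4.13% of all tested genes rose, 2.85% fell and 6.98% were called in all. The median of the set was 0.43, beside 0.04 for all tested genes. By role, 3 of 8 membrane proteins rose (Cd63, Cd68, Gpnmb), 4 of 7 proteases (Ctsa, Ctsb, Ctsl, Ctsz), 2 of 8 glycosidases and lipid-handling proteins (Hexa, Gaa), 1 of 2 transcription factors (Tfe3), 1 of 3 receptors (Sqstm1), 3 of 5 ATG8 genes (Map1lc3a, Map1lc3b, Gabarap) and 1 of 8 machinery genes (Wipi2). For Cd68 and Gpnmb this mean joins a called HB9 effect with an uncalled Opn4 effect, and their effects differed between the lines. Hexa had a mean effect of 1.14 ± 0.31 (adjusted p = 0.0424), Gaa of 0.39 ± 0.10 (0.0338), Map1lc3b of 0.43 ± 0.11 (0.0351) and Gabarap of 0.47 ± 0.12 (0.0367). Of 23 alternatives the call held in 8 for Hexa, 11 for Gaa, 12 for Map1lc3a, 12 for Map1lc3b, 13 for Gabarap and 18 for Wipi2. Hexa lost it without Opn4 crush replicate 1 or 2 or any 1 of the 6 HB9 libraries (0.0751 to 0.101). Map1lc3a lost it without Opn4 sham replicate 2, Opn4 crush replicate 3 or any 1 HB9 library (0.0538 to 0.0907), and Map1lc3b without Opn4 sham replicate 2, Opn4 crush replicate 2 or any 1 HB9 library (0.059 to 0.0887). Gaa lost it without Opn4 sham replicate 3, any 1 Opn4 crush library, HB9 sham replicate 1 or 2, or HB9 crush replicate 2 or 3 (0.0515 to 0.0848). Gabarap lost it without replicate 2 or 3 of Opn4 sham, Opn4 crush or HB9 sham, or replicate 1 or 2 of HB9 crush (0.0598 to 0.103), and Wipi2 without HB9 sham replicate 1 or any 1 HB9 crush library (0.0518 to 0.056). Cd68 lost it in limma voom on recovered reads (0.0817).

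The crush effect differed between the lines for 3 of the 41 genes, all with the smaller effect in Opn4 cells. Of all tested genes 0.525% were lower and 0.290% higher in this contrast, 0.816% in all. Opn4 minus HB9, the difference of the effects was −6.04 ± 1.20 for Cd68 (adjusted p = 0.0382), −5.62 ± 0.88 for Gpnmb (adjusted p = 0.0127) and −0.84 ± 0.16 for Sqstm1 (adjusted p = 0.0359), on the log2 scale. Cd63, which rose in both lines, had −1.47 ± 0.45, Ctsb −0.52 ± 0.19 and Ctsa −0.83 ± 0.37, and none of these was called (adjusted p = 0.176, 0.275 and 0.37). Ctsl (0.72 ± 0.27) and Ctsz (0.94 ± 0.47) pointed the other way and were not called either (adjusted p = 0.276 and 0.431). No protease had a called difference of its crush effect between the lines. Cd68 was lost without any 1 of the libraries but Opn4 crush replicate 1 (0.051 to 0.0966), and Sqstm1 without any 1 but Opn4 sham replicate 2 (0.059 to 0.102). Gpnmb kept its call in all 12 such fits and lost it with a pseudocount of 0.1 (0.0736) and in limma voom on recovered reads (0.18).

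After sham surgery 10 of the 41 genes differed between the classes, 3 higher in Opn4 cells and 7 lower. Of all tested genes 5.82% were higher, 5.93% lower and 11.8% called in all. The median difference of the set was 0.06, beside 0.01 for all tested genes. Among the called genes cathepsins Z and L differed most. Ctsz had means of 14.2 ± 5.65 RPKM in Opn4 sham and 103 ± 18.2 in HB9 sham, a log2 difference of −2.84 ± 0.33 (adjusted p = 0.000127). Ctsl had means of 133 ± 29.0 and 464 ± 108 (−1.79 ± 0.19, adjusted p = 5.9e-05). The libraries of the classes were fully apart for both genes, as they were for Lamp2 (9.80 to 18.5 against 34.8 to 38.9 RPKM, −1.30 ± 0.28, adjusted p = 0.00798), Mcoln1 (54.1 to 67.8 against 105 to 142, −1.05 ± 0.20, adjusted p = 0.00378) and Ulk1 (48.5 to 51.0 against 103 to 148, −1.26 ± 0.23, adjusted p = 0.00271). Map1lc3b was lower by −0.88 ± 0.16 (adjusted p = 0.00289) and Ctsb by −0.52 ± 0.14 (adjusted p = 0.0263) in Opn4 cells. Scarb2, at 0.786, 36.5 and 44.8 RPKM in Opn4 sham and at 73.9, 99.6 and 136 in HB9 sham, had a difference of −2.80 ± 0.93 without overlap, which was not called (adjusted p = 0.0728).

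Gaa was the clearest gene in the other direction, at 539 to 638 RPKM in Opn4 sham and 287 to 382 in HB9 sham (0.84 ± 0.14, adjusted p = 0.00203). Ctsd, at 708 to 912 against 514 to 549 RPKM, was higher by 0.56 ± 0.12 (adjusted p = 0.0104), and Map1lc3a, at 434 to 497 against 298 to 364, by 0.48 ± 0.14 (adjusted p = 0.0479). Ctsd overlaps Ifitm10 on the same strand, which was at 47.0 to 156 RPKM in Opn4 sham and 0 to 2.39 in HB9 sham, and reads of the shared stretch cannot be told apart. The ATG8 genes differed in direction, with LC3A higher and LC3B lower in Opn4 cells. All 3 libraries of Opn4 sham lay above those of HB9 sham for 7 of the 41 genes (15.5% of all tested genes) and below them for 10 (15.2%). Rod markers, present in all libraries, summed to 816 to 2082 RPKM in Opn4 sham and 309.6 to 1008 in HB9 sham. With their mean as a covariate Ctsz, Ctsl and Gaa kept the call, while Lamp2 (0.121), Mcoln1 (0.0677), Map1lc3b (0.0739), Ulk1 (0.0566), Ctsb (0.222), Ctsd (0.182) and Map1lc3a (0.222) lost it. Ctsb also lost it after quantile normalization (0.0813) and without Opn4 sham replicate 3 (0.1) or HB9 sham replicate 2 (0.0962) or 3 (0.0919), and Map1lc3a without any 1 of the HB9 libraries (0.0601 to 0.181), any 1 of the Opn4 sham libraries (0.0529 to 0.129) or Opn4 crush replicate 2 (0.055).

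After crush 10 of the 41 genes differed between the classes, 1 higher in Opn4 cells (Gaa) and 9 lower, against 5.12% of all tested genes higher, 7.60% lower and 12.7% in all. The median of the set was −0.30, beside −0.12 for all tested genes, which was −0.05 after median-of-ratios scaling. All 3 Opn4 crush libraries lay above the HB9 crush libraries for 5 genes (12.8% of all tested genes) and below for 15 (17.6%). Gaa was higher by 0.76 ± 0.14 (adjusted p = 0.0043). Cd68 was lower by −5.53 ± 0.85 (adjusted p = 0.00106) and Gpnmb by −3.97 ± 0.62 (adjusted p = 0.00121), the largest differences of the set. Ctsz (−1.90 ± 0.33, adjusted p = 0.00255), Ctsl (−1.07 ± 0.19, 0.00307), Ctsb (−1.04 ± 0.14, 0.000376) and Ctsa (−0.86 ± 0.26, 0.0481) were lower too, so that 4 of the 7 tested proteases were below the HB9 level. Among autophagy genes Map1lc3b (−1.06 ± 0.16, adjusted p = 0.000882), Sqstm1 (−0.78 ± 0.12, 0.000892) and Optn (−1.23 ± 0.36, 0.0396) were lower.

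Lamp2, Mcoln1 and Ulk1 had class differences of −0.40 ± 0.28, −0.42 ± 0.20 and −0.30 ± 0.23 after crush, none of them called (adjusted p = 0.388, 0.202 and 0.439). The change of the class difference is the same contrast as the difference of the crush effects, in which these 3 genes were not called (adjusted p = 0.354, 0.36 and 0.209). Rod markers summed to 1154 to 3344 RPKM in Opn4 crush and 598.7 to 1016 in HB9 crush, and with their mean as a covariate Ctsl (0.0519), Ctsz (0.0614), Ctsa (0.545) and Optn (0.158) lost the call. Ctsa also lost it after median-of-ratios scaling (0.073) or quantile normalization (0.0701), and without any 1 of the HB9 libraries (0.0571 to 0.135), any 1 of the Opn4 crush libraries (0.0554 to 0.149) or Opn4 sham replicate 3 (0.0513). Optn lost it after median-of-ratios scaling (0.0514) and without any 1 of the HB9 libraries (0.0549 to 0.149) or Opn4 crush replicate 1 (0.083) or 2 (0.125).

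**Figure D5:**
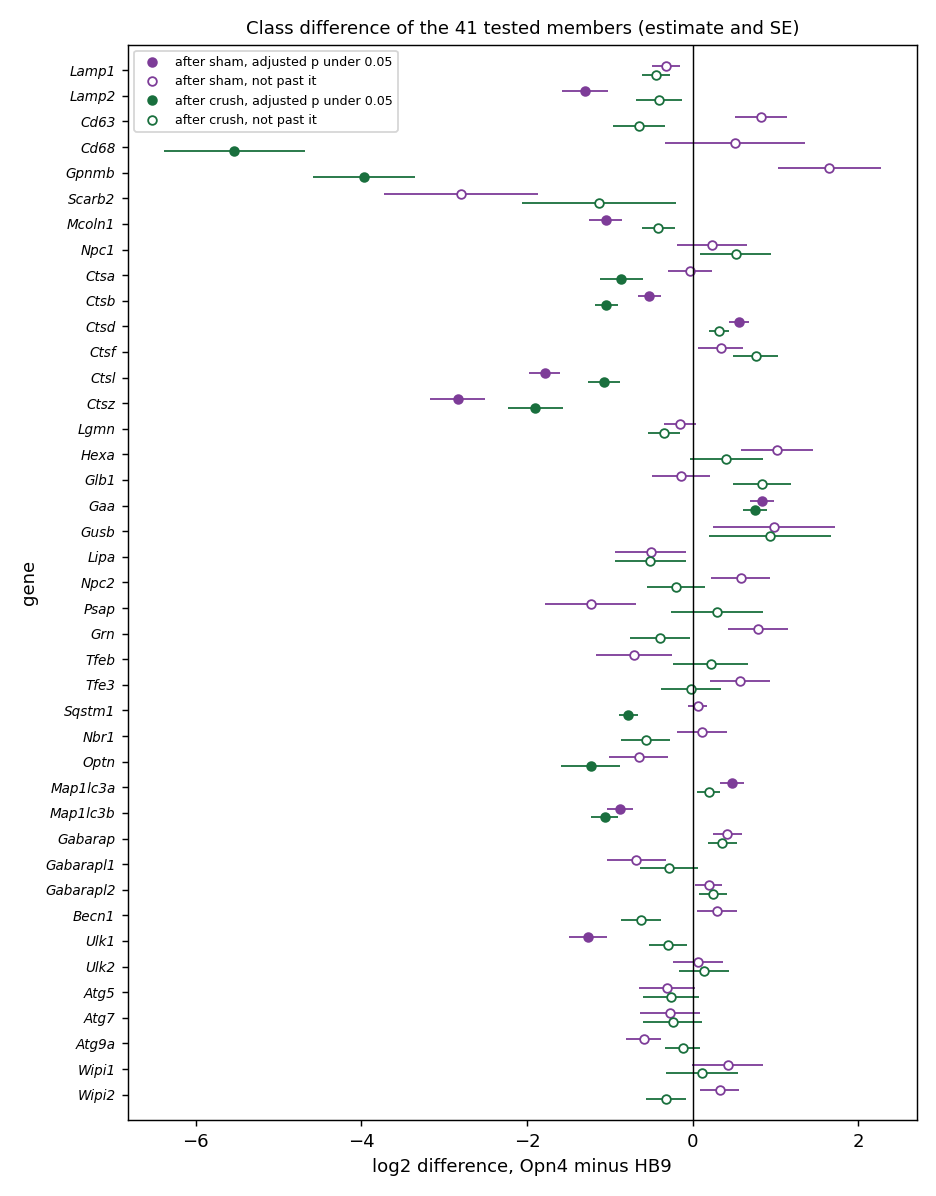
The horizontal axis gives the log2 difference between Opn4 and HB9 cells, after sham (purple) and after crush (green), for the 41 tested genes on the vertical axis; points are limma estimates with standard errors, filled where the adjusted p was under 0.05. Cd68 (−5.53) and Gpnmb (−3.97) are far to the left after crush only, Ctsz and Ctsl lie to the left after both surgeries, and Gaa to the right after both.

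The genes with and without CACGTG in their window were counted among the calls. Of the 11 genes with a match 1 rose in HB9 cells (Ctsa) and 1 in Opn4 cells (Ctsl). Of the 27 with a window but no match 6 rose in HB9 cells and 3 in Opn4 cells. Of all tested genes 3.84% rose in HB9 cells and 0.690% in Opn4 cells. In the mean crush effect 3 of the 11 (Ctsa, Ctsl, Gaa) and 10 of the 27 rose, beside 4.13% of all tested genes. Ctsb and Map1lc3a, both called in HB9 cells, had no window. Lamp1, with the 4 matches printed above, had a crush difference of 0.03 in HB9 cells and −0.08 in Opn4 cells, and Ctsa, with 2, had 1.50 and 0.67. Between the classes after sham 4 of the 11 differed (Ctsd, Ctsl, Gaa, Mcoln1) and 4 of the 27, beside 11.8%. Of the 4 genes with the AP-1 site 2 rose in HB9 cells (Cd68, Gpnmb) and 0 in Opn4 cells. Of the 34 with a window but no AP-1 site 5 rose in HB9 cells and 4 in Opn4 cells. The shares of all tested genes that rose are those given above. These are counts over few genes, and no test was made of them.

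Other genes of the pathway, from 6 lists of 136 symbols, gave 124 tested genes. In Opn4 cells 2 rose and 0 fell. Neu1, the lysosomal sialidase, was at 18.8, 31.2 and 19.5 RPKM after sham and at 50.4, 61.2 and 63.4 after crush (1.33 ± 0.24, adjusted p = 0.0173), and Fnip2, a folliculin partner that acts on the lysosomal nutrient sensor, rose from a mean of 0.270 to 6.19 RPKM (2.32 ± 0.50, adjusted p = 0.0441). In HB9 cells 7 rose and 3 fell. Among them Tpp1, a tripeptidyl peptidase, rose by 0.89, the proton pump subunits Atp6v1g1 and Atp6v1h by 1.01 and 0.67, the mTORC1 activator Rheb by 0.98 and the ubiquitin-binding protein Tollip by 0.94. Sort1, a sorting receptor for lysosomal enzymes, fell by 1.27, the lysosomal polyamine transporter Atp13a2 by 0.95 and the mitophagy receptor Bnip3 by 0.73. The shares called, 1.61% and 8.06%, were near those of all tested genes (1.11% and 6.42%).

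By list in HB9 cells, 2 of 19 proton pump genes, 2 of 28 other lysosomal enzymes, 1 of 17 other membrane proteins, 1 of 23 genes of biogenesis and mTORC1 signalling and 1 of 11 other receptors rose. The same lists, in that order, had 0, 0, 1, 1 and 1 genes that fell, and 0 of 26 other core autophagy genes were called by limma (4 had a p under 0.05 without adjustment). The median difference of all 124 related genes was 0.26 in HB9 cells and 0.08 in Opn4 cells, beside 0.40 and 0.35 for the set of 41. In the difference of the crush effects 0 of the 124 were called by limma, and 19 had a p under 0.05 without adjustment. Between the classes after sham 3 were higher in Opn4 cells and 15 lower, and after crush 4 were higher and 20 lower, 14.5% and 19.4% of the 124 beside 11.8% and 12.7% of all tested genes. The lower genes after sham included Laptm4b, a lysosomal membrane protein, with means of 77.6 ± 29.1 RPKM in Opn4 cells and 439 ± 19.1 in HB9 cells (−2.56 ± 0.46, adjusted p = 0.0027), and Bnip3, with 186 ± 25.0 and 647 ± 47.9 (−1.80 ± 0.15). Of the 19 proton pump genes 5 were lower in Opn4 cells after each surgery and 0 higher, 26.3% of that list. Of all tested genes 5.93% were lower after sham and 7.60% after crush. The other lists had 0 to 4 lower genes each after sham and 1 to 6 after crush.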

How the data were processed

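RPKM values per gene and library were made and deposited by the authors. TopHat2 2.0.11, Bowtie, edgeR 3.14.0 and build mm10 are named per the submitters' processing notes; the counting step, its use of strand and the gene lengths are not given in the sources used here. Values were analysed as log2(RPKM + 1) in limma 3.58.1 (R 4.3.3; lmFit, contrasts.fit, eBayes with trend), for the 18269 genes that reached 1 RPKM in 3 or more of the 12 libraries, with 4 group means. The 6 contrasts were the crush effect in each line, their mean and difference, and the class difference after each surgery. Tests were two-sided with Benjamini-Hochberg adjustment over all tested genes, at 0.05; errors of differences are standard errors. Whole reads and library totals were recovered from the RPKM steps (100% of the values of short genes lay within 1e-05 of a whole read). Recovered reads exceed the totals about 2.3-fold for a reason not given, and amplified reads are not independent molecules, so counting intervals are too narrow. The script was tested on simulated data. The 43 genes, the related lists and the markers were chosen with earlier results of these data known. All 43 genes could be named; of each related list, at most the 3 largest called changes per comparison, and of markers the defining genes. Of the 43 spans, 16 overlap another gene. Some genes of the related lists are counted but not reported by name here. There were 24 alternatives, among them limma voom on recovered reads.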

Additional observations from a re-analysis of the deposited data

Results flagged for a closer look

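The crush effect of 3 genes of the set differed between the lines in the interaction contrast of limma, Opn4 minus HB9 on the log2 scale. Cd68 differed by −6.04 ± 1.20 (SE; adjusted p = 0.0382), and its 3 HB9 crush libraries at 92.9 to 125 RPKM lay above the 3 Opn4 crush libraries at 0 to 13.0. Gpnmb differed by −5.62 ± 0.88 (adjusted p = 0.0127), with 66.8 to 120.0 RPKM in HB9 crush and 2.87 to 7.69 in Opn4 crush. Sqstm1 differed by −0.84 ± 0.16 (adjusted p = 0.0359), and crush libraries were above sham libraries in 3 of 3 for each line. Over the 23 alternatives of this contrast the adjusted p ranged from 0.00175 to 0.177 for Cd68, from 0.0037 to 0.18 for Gpnmb and from 0.0148 to 0.102 for Sqstm1.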

How the results depend on the processing

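The called genes of the set kept their sign in all 23 or 24 alternatives of each comparison. Counts moved by more than 1.5 times as follows. With the groups of a comparison fitted alone, the genes called after crush in Opn4 cells went from 203 to 13 and those of the set from 4 to 0, and in HB9 cells from 1172 to 1939 and from 9 to 15. Library weights gave 87 genes in Opn4 cells, and 3025 genes and 19 of the set in HB9 cells (18 higher, 1 lower). Voom on recovered reads called 2 of the set in Opn4 cells. In the difference of the crush effects, a pseudocount of 0.1 gave 90 genes instead of 149, and 1 of the set instead of 3 was called with that pseudocount, without a filter or with voom. With rod markers as a covariate the class difference fell from 2148 to 801 genes and from 10 to 3 of the set after sham, and from 2325 to 955 and from 10 to 6 after crush. The cause was not tested.

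Leaving out 1 library at a time gave 139 to 224 genes and 2 to 5 of the set in Opn4 cells, 645 to 1393 and 6 to 11 in HB9 cells, 799 to 1218 and 9 to 16 for the mean effect, and 61 to 156 and 1 to 2 for the difference of the effects. It gave 1348 to 2353 and 8 to 10 for the class difference after sham, and 1356 to 2619 and 8 to 10 after crush. Replicate numbers are shared between groups, but same-numbered libraries did not deviate together (correlations −0.0217 to 0.081, none of 18 over 0.1). With a replicate block the difference of the effects gave 98 genes and 1 of the set. Tfeb had 0 to 202 recovered reads per library and Wipi1 0 to 134, and the part of depth in their tests was not tested.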
